A study of Mus musculus with 14 samples.

Results

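The insulin-like growth factor (IGF) binding protein and receptor genes of this series are Igfbp2, Igfbp3, Igfbp4, Igfbp5, Igfbp6, Igfbp7, Igf1r, Igf2r and Igf2. These 9 genes were taken by symbol from the 23284 genes listed in each of 2 tables of RNA-seq expression levels. The family was selected on measured values in one respect, because Igfbp4 mRNA was near 0 in EpH4 cells and high in EpRas cells. The difference between the lines is therefore described for all of the genes without a test. EpH4 is a mouse mammary gland epithelial cell line, and EpRas is its derivative transformed with H-Ras. EpH4 cells were grown in 10% and EpRas cells in 4% fetal bovine serum, so that the transformation and the serum content cannot be told apart. Untransfected EpH4 and EpRas cells were left untreated or treated with TGF-β3 (1 ng/ml) for 48 h, with 2 libraries for each of the 4 groups. EpRas cells were also transfected with a negative control siRNA (siNC), with siEtv4_1 and siEtv5_1 together (pair 1), or with siEtv4_2 and siEtv5_2 together (pair 2). Each of these was left untreated or treated with the same dose of TGF-β3 for 48 h, with 1 library for each of the 6 conditions. The study describes the libraries of an untransfected group as biological replicates without saying how the cultures were separated. The p-values below for untransfected cells measure the spread between these libraries. Those for transfected cells measure the disagreement between conditions, which stand in for replicates.

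IGF-binding proteins are secreted proteins that hold IGF-I and IGF-II outside the cell and control how much ligand reaches the type 1 receptor, the tyrosine kinase encoded by Igf1r. Igf2r encodes the cation-independent mannose 6-phosphate receptor, which takes up IGF-II for degradation and also sorts lysosomal enzymes. Igfbp7 encodes a relative of the classical binding proteins with low affinity for IGFs that is deposited around cells, and in the mammary gland the family is known for Igfbp5, which is secreted during involution after lactation.

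Expression levels are FPKM, that is, fragment numbers divided by exon length and library size, and are thus comparable between genes of 1 library. Each of the 6 markers of epithelial cells (Epcam, Cdh1, Krt8, Krt18, Krt7 and Cldn7) reached 5 FPKM in both lines. The markers of endothelial cells summed to at most 0.481 FPKM in any untransfected library. The summed level of 8 fibroblast markers lay between 22.7 and 247 FPKM in EpH4 cells and between 8.42 and 13.6 FPKM in EpRas cells. For 6 myoepithelial markers the sum was 334 to 864 FPKM in EpH4 and 64.1 to 117 FPKM in EpRas cells. The leukocyte markers summed to 1.96 to 8.49 and 4.50 to 8.27 FPKM, and the adipocyte markers to 0.537 to 8.13 and 0.342 to 2.54 FPKM. The part of these levels in the differences between the lines was not tested. The relative depth of the untransfected libraries, read from the steps between low FPKM, ranged from 0.609 to 1.36, with the first untreated EpH4 library set to 1.

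The 250 bases before the RefSeq start site (GRCm38.p6) are shown for 4 of the binding protein genes, namely Igfbp4 and Igfbp6, whose mRNA was seen mainly in EpRas cells, Igfbp3, whose mRNA was seen mainly in EpH4 cells, and Igfbp7, which was the most abundant. They are written 5′ to 3′ on the strand of the gene, and capitals mark the ETS core GGAA (or TTCC, its reverse complement) and the TATA box core TATAAA on either strand. The windows are chr11:99040994-99041243 (plus strand) for Igfbp4, chr15:102143936-102144185 (plus strand) for Igfbp6, chr11:7213924-7214173 (minus strand) for Igfbp3 and chr5:77408046-77408295 (minus strand) for Igfbp7.
Igfbp4: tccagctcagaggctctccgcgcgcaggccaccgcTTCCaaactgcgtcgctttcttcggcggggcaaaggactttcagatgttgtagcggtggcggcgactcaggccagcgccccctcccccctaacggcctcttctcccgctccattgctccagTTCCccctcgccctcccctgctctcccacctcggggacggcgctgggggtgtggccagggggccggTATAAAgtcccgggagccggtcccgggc
Igfbp6: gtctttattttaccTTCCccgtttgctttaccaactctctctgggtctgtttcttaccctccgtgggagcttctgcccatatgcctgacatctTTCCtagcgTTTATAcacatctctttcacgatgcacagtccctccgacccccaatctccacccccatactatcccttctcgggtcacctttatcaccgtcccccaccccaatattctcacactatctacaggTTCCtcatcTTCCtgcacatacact
Igfbp3: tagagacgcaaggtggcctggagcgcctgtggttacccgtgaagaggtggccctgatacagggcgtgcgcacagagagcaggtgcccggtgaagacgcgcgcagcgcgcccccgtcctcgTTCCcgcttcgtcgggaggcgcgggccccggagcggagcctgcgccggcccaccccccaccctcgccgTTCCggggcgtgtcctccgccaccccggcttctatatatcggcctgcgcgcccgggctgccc
Igfbp7: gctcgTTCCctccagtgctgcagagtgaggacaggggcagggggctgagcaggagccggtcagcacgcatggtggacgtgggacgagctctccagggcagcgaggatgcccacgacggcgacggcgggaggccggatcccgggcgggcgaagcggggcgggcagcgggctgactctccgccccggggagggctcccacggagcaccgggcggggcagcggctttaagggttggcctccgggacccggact

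The Igfbp4 window held TATAAA 28 to 23 bases before the start site, the Igfbp6 window held it 148 to 143 bases before the start on the opposite strand, and the Igfbp3 and Igfbp7 windows did not hold these letters. Of all 32851 promoter windows of this length, 12.4% held TATAAA. The ETS core, the letters read by ETS family factors such as Etv4 and Etv5, occurred 2 times for Igfbp4, 4 times for Igfbp6, 2 times for Igfbp3 and 1 time for Igfbp7, but 93.4% of all windows held it at least once. The longer ETS letters CCGGAA, which contain the core, were found for Igfbp3 only among these genes, 62 to 57 bases before the start, and in 12.03% of all windows. The AP-1 letters TGANTCA were in none of the 4 windows and in 6.75% of all windows, and the Smad letters CAGAC were in the Igfbp6 window and in 42.2% of all windows. The windows differed in base composition, with 22 CpG for Igfbp4, 32 for Igfbp3, 26 for Igfbp7 and 7 for Igfbp6, where the median of all windows was 6. The Igfbp6 window ends at 102144185, while the gene starts at 102144362 in GENCODE M21. Its distances and CpG number thus refer to the RefSeq start site only. A match of letters is a description of the sequence and not a measured site.

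Igfbp4 encodes a small binding protein that mostly restrains IGF action and is cut by the protease PAPP-A. The gene lies on chromosome 11 from 99041244 to 99054392 on the plus strand (mm10, GENCODE M21), with 4 exons in its longest transcript. Its expression level was 0.0913 and 0.0673 FPKM in the 2 untreated EpH4 libraries and was listed at 0 in both TGF-β-treated EpH4 libraries. In EpRas cells it was 289 and 249 FPKM without TGF-β and 149 and 206 FPKM with TGF-β. The lowest EpRas library was thus far above the highest EpH4 library. In bulk RNA, fewer cells with the transcript and less transcript in each cell cannot be told apart. The steps between the FPKM, placed by the annotated transcript length, gave about 2 reads in each untreated EpH4 library, against 3852 and 6180 reads in the untreated EpRas libraries. From the summed reads, the level in untreated EpRas cells was 3391 times that in untreated EpH4 cells, a description that rests on 4 reads in EpH4 cells.

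An exact 0 in these tables can also be a failed estimate. Cenpb, a widely expressed centromere protein gene whose pattern was the most similar to that of Igfbp4 (Pearson r = 1.00 over the 8 libraries), was listed at 0 in all 4 EpH4 libraries but reached 125 to 248 FPKM in EpRas cells. It was 1 of 12 genes listed at 0 in all 4 EpH4 libraries and at 5 FPKM or more in all 4 EpRas libraries. Whether the 0 of Igfbp4 in TGF-β-treated EpH4 cells is such an estimate was not tested. The next genes by similarity to Igfbp4 were Col4a1, a basement membrane collagen gene that was at 0 to 0.0265 FPKM in EpH4 and 11.2 to 13.8 FPKM in EpRas cells, and Tmem141, which was listed at 0 in EpH4 cells and lay between 8.04 and 11.8 FPKM in EpRas cells. These correlations share the same libraries and mainly follow the difference between the lines.

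The neighbors of Igfbp4 did not share its pattern. Top2a, which encodes a DNA topoisomerase and lies 17054 bases before Igfbp4, was at 81.6 to 111 FPKM in EpH4 and 74.3 to 107 FPKM in EpRas cells. Tns4, which encodes a focal adhesion protein and lies 11285 bases after Igfbp4, was at 10.0 to 20.4 FPKM in EpH4 and 6.67 to 18.0 FPKM in EpRas cells. For both neighbors the ranges of the lines overlapped.

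Igfbp6 encodes the binding protein with a preference for IGF-II and lies on chromosome 15 from 102144362 to 102149511 (plus strand). Its level was listed at 0 and 0.115 FPKM in the untreated EpH4 libraries and at 0 in both treated ones. In EpRas cells it was 4.11 and 3.18 FPKM without TGF-β, and 0.912 and 1.41 FPKM with TGF-β. Like Igfbp4, it was higher in each EpRas library than in each EpH4 library, but at 16 and 23 reads in the untreated EpRas libraries and 1 read in the untreated EpH4 libraries together. The ratio of the lines without TGF-β was 52.7 by reads, and because of the single read the counting error alone (95% exact binomial interval) allows 8.92 to 2136. Its neighbors Spryd3 (28.3 to 44.1 FPKM in EpH4, 31.4 to 37.7 FPKM in EpRas) and Csad (5.03 to 6.88 and 3.71 to 9.07 FPKM) were at similar levels in both lines.

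Igfbp3 encodes the main carrier of IGFs in serum and lies on chromosome 11 from 7206086 to 7213923 (minus strand). It had the opposite pattern, with 7.98 and 8.01 FPKM in untreated EpH4 cells and 9.69 and 8.07 FPKM in treated ones, but 0.499 and 0.872 FPKM in untreated EpRas cells and 0 and 0.228 FPKM in treated EpRas cells. All EpH4 libraries lay above all EpRas libraries. By reads, the untreated EpH4 level was 10.8 times the EpRas level, from 248 and 17 reads. With TGF-β it was 87.5 times, but only 2 reads stood against 206, and the counting error alone allows 23.9 to 727. Igfbp1, which lies 3539 bases from Igfbp3 and encodes a binding protein known from liver, was listed at 0 in all 8 libraries.

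Igfbp2 and Igfbp5, neighbors on chromosome 1 that are 5457 bases apart and are transcribed toward each other, were low in EpH4 cells and listed at 0 in all 4 EpRas libraries. Igfbp2 was at 0.908 and 0.335 FPKM in untreated and at 0 and 0.282 FPKM in treated EpH4 cells, which stood for 11 reads in all. Igfbp5 was at 0.0602 and 0.111 FPKM in untreated EpH4 cells (2 and 5 reads) and at 0.626 and 1.15 FPKM in treated EpH4 cells (15 and 41 reads). Igf2, which encodes IGF-II, was listed at 0 in all 8 untransfected libraries.

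Igfbp7 was the most highly expressed binding protein gene in every untransfected library, and it lies on chromosome 5 from 77349240 to 77408041 (minus strand). It was at 679 and 793 FPKM in untreated EpH4 cells and at 340 and 333 FPKM in untreated EpRas cells, where it ranked 246 and 241 among all genes. The TGF-β-treated libraries had 2410 and 2169 FPKM, rank 23 and 29, in EpH4 cells and 485 and 595 FPKM in EpRas cells. The 4 groups did not overlap, in the order TGF-β-treated EpH4, untreated EpH4, TGF-β-treated EpRas and untreated EpRas cells. The mean in untreated EpH4 cells was 2.19 times that in untreated EpRas cells, and with TGF-β it was 4.24 times.

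The receptor genes differed less between the lines. Igf1r (chromosome 7, 67952827 to 68233668, plus strand) was at 5.06 and 6.44 FPKM in untreated EpH4 and 6.10 and 6.23 FPKM in untreated EpRas cells, and these libraries overlapped. With TGF-β it was 8.13 and 8.85 FPKM in EpH4 and 6.32 and 6.07 FPKM in EpRas cells, so that treated EpH4 cells were above the other groups, which did not differ beyond their spread. Igf2r (chromosome 17, 12682406 to 12769664, minus strand) was at 16.4 and 17.5 FPKM in untreated and 24.0 and 22.9 FPKM in treated EpH4 cells. In EpRas cells Igf2r was at 13.7 and 15.5 FPKM without and 14.1 and 12.2 FPKM with TGF-β, below EpH4 cells in both conditions. Igf2r mRNA was 2.01 to 3.25 times Igf1r mRNA per length in each of the 8 libraries.

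**Figure D1:**
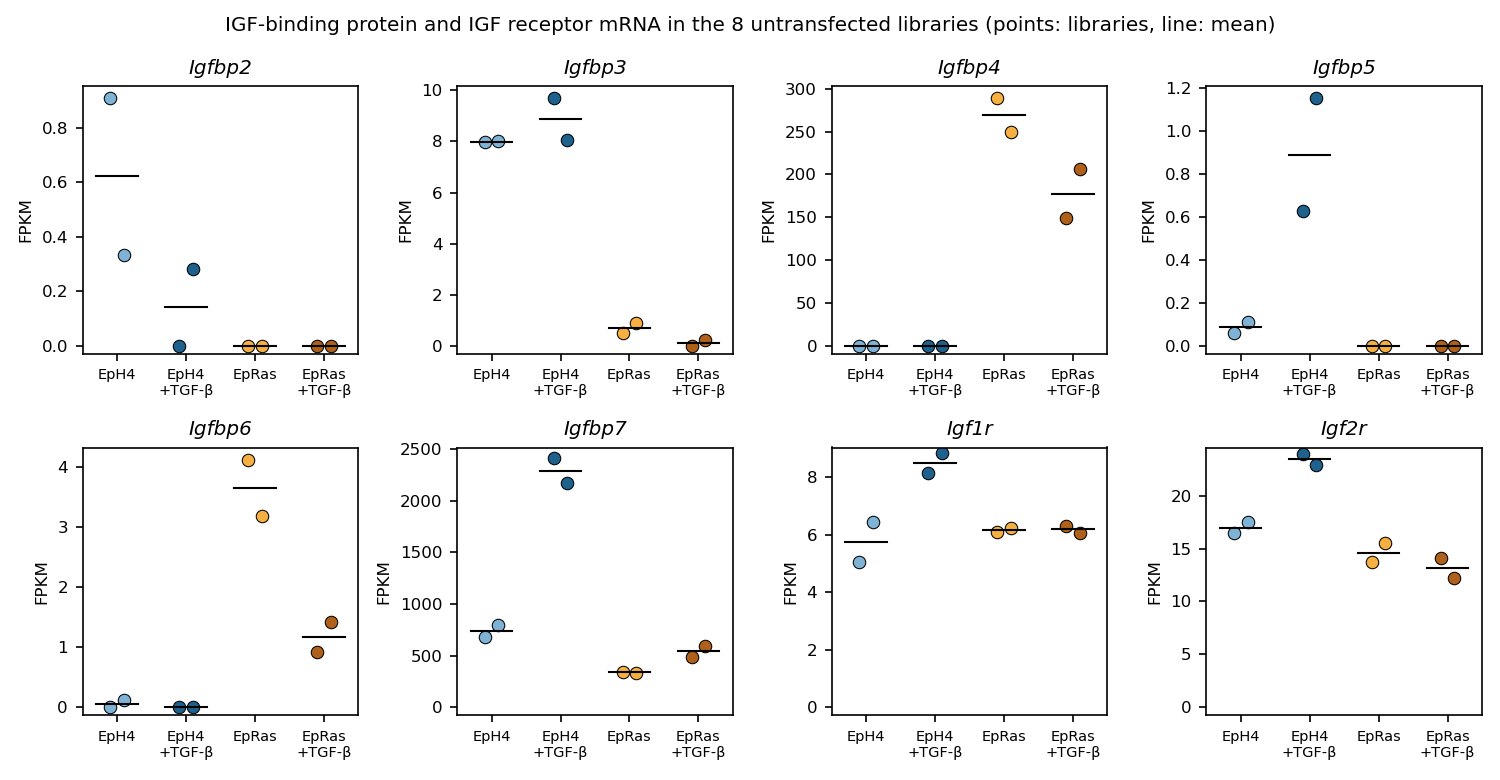
Expression level (FPKM, linear axes from 0) of 8 of the genes in the 8 untransfected libraries, with 1 point for each library and a line for the mean of 2. Igfbp4 and Igfbp6 are near 0 in EpH4 cells, Igfbp3 is near 0 in EpRas cells, and Igfbp7 reaches 2410 FPKM in TGF-β-treated EpH4 cells. Igfbp2 and Igfbp5 are at 0 in EpRas cells and low in EpH4 cells too, at no more than 0.908 and 1.15 FPKM.

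Of the 9 genes, 5 reached 5 FPKM in at least 1 untransfected library (Igfbp3, Igfbp4, Igfbp7, Igf1r and Igf2r). Without TGF-β, 1 of these 5 (Igfbp4) lay above EpH4 in both EpRas libraries and 3 lay below (Igfbp3, Igfbp7 and Igf2r), where 30.6% of all genes tested lay above and 30.4% below. With TGF-β, 1 lay above and 4 below, against 30.2% and 32.7% of all genes. The rule that chose the family used this contrast, so nothing is read from these counts.

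The make-up of the family is likewise given as a description, since it rests on the levels of Igfbp4 that chose it. Of the summed FPKM of the 6 Igfbp genes, Igfbp7 held 98.7 to 99.6% in the EpH4 libraries. In untreated EpRas cells Igfbp7 held 53.7 and 56.8% and Igfbp4 45.6 and 42.5% of the sum, and in TGF-β-treated EpRas cells Igfbp7 held 76.4 and 74.1% and Igfbp4 23.4 and 25.7%. The other 4 genes together held at most 1.30% in any untransfected library. The sum itself was 688 and 802 FPKM in untreated EpH4 cells and 633 and 586 FPKM in untreated EpRas cells.

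**Figure D2:**
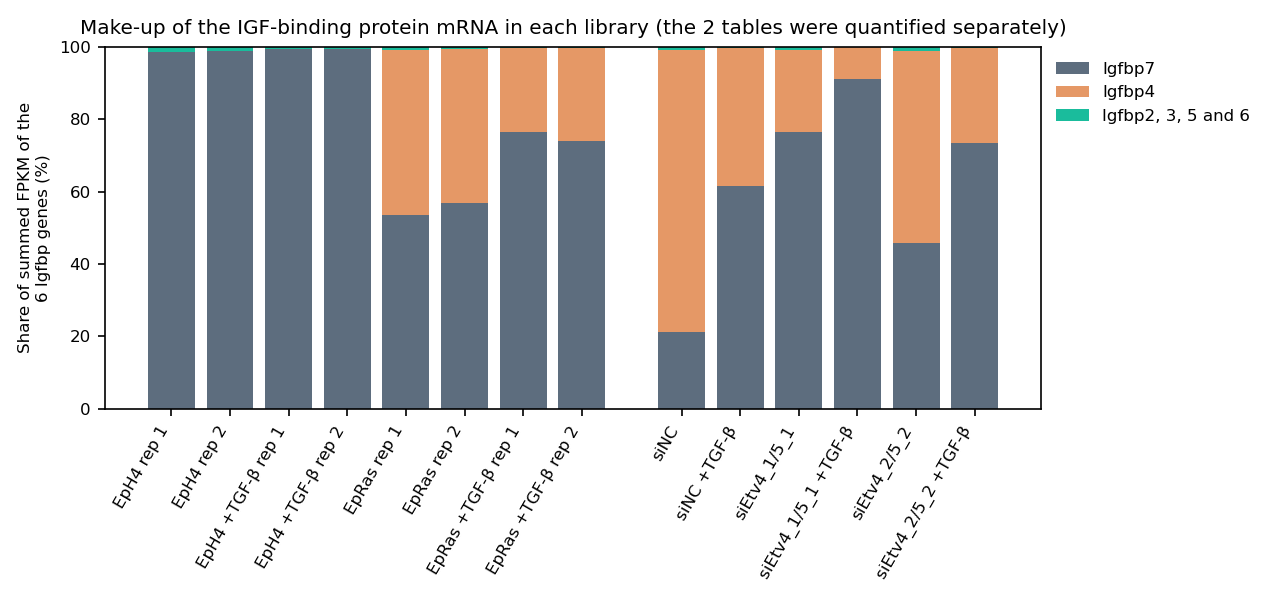
Share of the summed FPKM of the 6 Igfbp genes (%) held by Igfbp7, Igfbp4 and the other 4 genes, with 1 bar for each library. Igfbp4 is visible in EpRas libraries only, and its share is smaller with TGF-β than without in each of the 3 siRNA conditions and in untransfected EpRas cells.

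Treatment with TGF-β increased Igfbp7 in EpH4 cells to 3.11 times the untreated mean, from 736 ± 81.0 to 2289 ± 170 FPKM (SD, n = 2). The log2 fold change was 1.64 (SE 0.17) on the log2(FPKM + 1) scale, with an adjusted p of 0.00125 by limma over 9100 genes, and adjusted p lay between 0.00091 and 0.0240 over the 15 alternatives. Of 8 fibroblast markers, 5 lay higher in both treated EpH4 libraries than in both untreated ones and 3 (Dcn, Lum and Thy1) were listed at 0, and the sum went from 22.7 and 26.8 to 247 and 222 FPKM, mostly by Col1a1. Of 6 myoepithelial markers, Acta2 and Krt14 lay higher and Trp63 and Myh11 lower, with a sum of 334 and 395 FPKM without and 864 and 798 FPKM with TGF-β, mostly by Krt14. Of 6 epithelial markers, Cdh1, Epcam, Krt7 and Krt8 lay higher and Cldn7 lower, with a sum of 4708 and 5988 FPKM without and 8328 and 7891 FPKM with TGF-β. Of the leukocyte, endothelial and adipocyte markers, Csf1r (0.185 and 0.103 against 6.23 and 5.74 FPKM) and Cdh5 lay higher and Lyz2 and Fabp4 (8.13 and 5.71 against 0.537 and 2.53 FPKM) lay lower. The part of these levels in the change of Igfbp7 was not tested. Igfbp7 was the only one of the 5 tested genes of the family called in EpH4 cells, where 6.48% of all genes tested were called higher and 2.91% lower. In EpRas cells both treated libraries were also above both untreated ones, at 1.61 times the mean, but the log2 difference of 0.67 (SE 0.17) did not pass the test (limma, adjusted p = 0.0908). The difference between the TGF-β effects of the lines was -0.96 (SE 0.24) for Igfbp7 and was not called either (limma interaction, adjusted p = 0.186).

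Igf1r and Igf2r were above the untreated libraries in both treated EpH4 libraries, by 0.50 (SE 0.16) and 0.44 (SE 0.15) on the log2(FPKM + 1) scale, without passing the test (limma, adjusted p = 0.103 and 0.127). The share of all genes whose treated and untreated libraries do not overlap was not computed. Nothing is thus read from a lack of overlap with TGF-β alone, for these genes or for the markers. In EpRas cells the treated and untreated libraries of both receptor genes overlapped, with log2 differences of 0.01 and -0.14. Igfbp4 was lower in both TGF-β-treated EpRas libraries than in both untreated ones, at 0.660 times the mean. Its log2 difference of -0.61 (SE 0.19) was not called (limma, adjusted p = 0.162), but was called without replicate 2 of TGF-β-treated EpRas cells (-0.84, adjusted p = 0.0452). Of the cell type markers in these cells, Acta2, Csf1r and Cdh5 lay higher in both treated libraries, while Cdh1, Cldn7, Krt7, Krt14, Col1a2, Col3a1 and Pdgfrb lay lower, and their part in the values was not tested. The summed epithelial markers were at 5067 and 3982 FPKM without and 2395 and 4046 FPKM with TGF-β, and the summed fibroblast markers at 12.3 and 13.6 against 8.42 and 11.1 FPKM. Igfbp3 had a log2 difference of 0.13 in EpH4 and -0.60 in EpRas cells, and neither was called (limma, adjusted p = 0.726 and 0.166). It passed the filter through EpH4 cells, and its value in EpRas cells rests on 17 reads without and 2 with TGF-β. In EpRas cells 0 of the 5 tested genes were called by limma, where 1.90% of all genes were called higher and 1.92% lower. An unadjusted p under 0.05 (limma) was found for 3 of the 5 and for 1442 of all 9100 genes. The interaction was called for 0 of the 5 by limma, where 0.802% of all genes were called. Its unadjusted p (limma) was under 0.05 for 3 of the 5 and for 990 of all 9100 genes. Among these 5, Igfbp4 passed the filter through EpRas cells alone and Igfbp3 through EpH4 cells alone, so their interactions compare an effect with values near 0 in the other line.

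The genes below 5 FPKM entered no test with that filter. Igfbp5 reached 1 FPKM in a single library, a TGF-β-treated EpH4 one, so a filter of 1 FPKM admits it by the difference in question and no call is taken from it. Its 56 reads with and 7 reads without TGF-β gave a ratio of 10.5 (exact binomial interval 4.77 to 27.3). Igfbp6, which reached 1 FPKM in EpRas libraries without and with TGF-β, was called lower with TGF-β in EpRas cells with a filter of 1 FPKM (log2 difference -1.11, limma, adjusted p = 0.0207), from 39 reads without and 11 with TGF-β, a ratio of 0.322 (exact binomial interval 0.149 to 0.642). Without any filter neither was called (limma, log2 difference 0.78 and adjusted p = 0.0851 for Igfbp5 in EpH4 cells, adjusted p = 0.103 for Igfbp6 in EpRas cells).

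**Figure D3:**
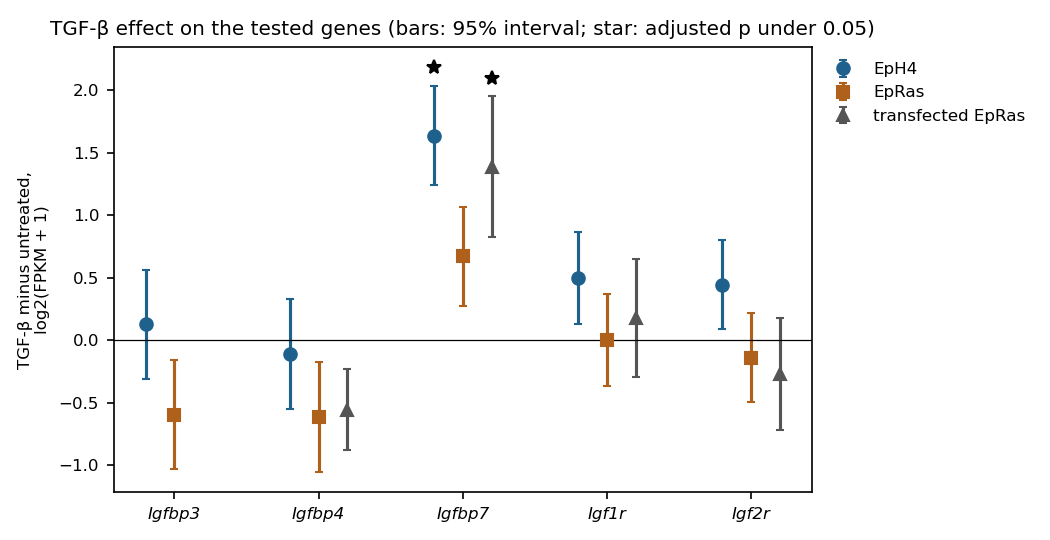
TGF-β effect on the tested genes, as the difference in log2(FPKM + 1) between treated and untreated cells, with 95% intervals from limma for EpH4, EpRas and transfected EpRas cells. Stars mark an adjusted p under 0.05, which Igfbp7 reached in EpH4 cells (1.64) and in transfected EpRas cells (1.39), and Igfbp3 has no value in transfected cells because it stayed under 5 FPKM there.

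The siRNA libraries gave a separate look at TGF-β in EpRas cells. Of the cell type markers, Epcam, Krt8, Krt18, Col1a1, Pdgfra, Pdgfrb, Csf1r and Cdh5 were higher with TGF-β in each siRNA condition, and Cldn7 was lower. Their part in the values below was not tested. Igfbp7 was 78.5 FPKM without and 316 FPKM with TGF-β in siNC-transfected cells, 317 and 697 FPKM with pair 1, and 177 and 364 FPKM with pair 2. The untreated level was thus 0.248, 0.454 and 0.487 times the treated level. In a model with a term for the siRNA, the log2 difference was 1.39 (SE 0.22) and was called (limma, adjusted p = 0.0375). The 3 siRNA conditions stand in for replicates in this model. The call was lost with a pseudocount of 0.1 FPKM (adjusted p = 0.0556) and without the libraries of pair 1 (0.229) or of pair 2 (0.113), and it was kept without those of siNC (0.0289).

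Igfbp4 was lower with TGF-β in each siRNA condition, at 287 and 196 FPKM with siNC, 93.5 and 67.3 FPKM with pair 1, and 204 and 130 FPKM with pair 2. The treated level was 0.683, 0.720 and 0.638 times the untreated level, set beside 0.660 times in untransfected EpRas cells, which were quantified separately. The log2 difference of -0.55 (SE 0.13) did not pass the test (limma, adjusted p = 0.0860, between 0.0573 and 0.361 over the alternatives). Of all genes tested, 20.7% were lower with TGF-β in all 3 conditions, as Igfbp4 was, and 23.5% were higher in all 3, as Igfbp7 was. Igfbp7 was thus the only one called of the 4 genes of the family that reached 5 FPKM in this table, where 2.62% of all genes were called higher and 1.55% lower.

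Igfbp6 was also lower with TGF-β in each siRNA condition, at 1.11 and 0.427 FPKM with siNC, 2.82 and 0.180 FPKM with pair 1, and 3.89 and 0.801 FPKM with pair 2. Over the 3 conditions together, 80 reads without and 16 with TGF-β gave a ratio of 0.167 (exact binomial interval 0.0909 to 0.288). With a filter of 1 FPKM it was not called (log2 difference -1.24, limma, adjusted p = 0.0620). That filter admits Igfbp6 here through untreated libraries only, the group where it is high, so nothing is read from this test. Igf1r and Igf2r did not move in 1 direction, since the treated level of Igf1r was 0.951, 1.68 and 0.968 times and that of Igf2r 0.788, 1.09 and 0.644 times the untreated level with siNC, pair 1 and pair 2 (limma, adjusted p = 0.639 and 0.446).

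To see which of the genes differed with the knockdown of Etv4 and Etv5, each pair of siRNAs was set against siNC. Etv4 was at 20.2% of siNC with pair 1 and at 48.5% with pair 2 in untreated cells, and Etv5 at 18.3% and 14.2%. With TGF-β, Etv4 was at 19.6% and 29.4% and Etv5 at 23.2% and 22.5% of siNC. The pairs were thus unequal in their effect on Etv4. There is 1 library for each condition, so the following differences have no replicate check, and a gene is counted where the mean of the 2 pairs was past 2-fold from siNC on the FPKM + 1 scale.

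Igfbp7 was higher with both pairs than with siNC in untreated cells, at 4.04 times with pair 1 and 2.26 times with pair 2. With TGF-β it was 2.21 and 1.15 times the siNC level. The siNC library without TGF-β (78.5 FPKM) was the lowest of all 6. Untransfected EpRas cells, which were quantified separately and are only set beside it, were at 340 and 333 FPKM without TGF-β, near the level of pair 1 and above that of siNC. With the low siNC value, the difference between the pairs and siNC was larger without TGF-β, at a log2 difference of 1.64, than with it, at 0.75. Igfbp4 was below siNC in each of the 4 comparisons, at 32.5% of siNC with pair 1 and 71.0% with pair 2 in untreated cells, and at 34.3% and 66.4% with TGF-β. The levels with pair 1 were below those with pair 2 in both conditions. The means of the pairs were 51.8% and 50.3% of siNC, just short of 2-fold on the FPKM + 1 scale (log2 differences -0.95 and -0.98). For Igfbp4 the untransfected EpRas level without TGF-β (289 and 249 FPKM) was near that of siNC (287 FPKM).

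Of the 4 genes of the family tested in this table, 1 (Igfbp7) was past 2-fold higher without TGF-β and 0 were past 2-fold lower, where 3.46% of all genes were past 2-fold higher and 3.65% lower. With TGF-β 0 of the 4 were past 2-fold, against 2.85% of all genes higher and 3.71% lower. In the secondary model with terms for knockdown and TGF-β, 0 of the 4 genes were called by limma, where 2.12% of all genes were called. Igfbp7 (1.13, SE 0.38) and Igfbp4 (-1.05, SE 0.38) had a limma adjusted p of 0.162 and 0.180. Their unadjusted p (limma) was under 0.05, as it was for 2064 of all 9094 genes. The siRNA pairs stand in for replicates of the knockdown in this model. Igf2r was at 72.0% and 64.6% of siNC without TGF-β with pairs 1 and 2, and at 99.4% and 52.8% with TGF-β. Igf1r was at 76.7% and 97.2% of siNC without and 136% and 98.9% with TGF-β.

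Of the low genes of the family, Igfbp3 and Igfbp6 had enough reads to set the pairs against siNC, with 1 library for each condition. Igfbp3 was 2.34 FPKM with siNC and 0.487 and 0.567 FPKM with pairs 1 and 2 in untreated cells, and 1.10, 0.436 and 0.0972 FPKM with TGF-β. By reads, the 2 pairs together were at 0.224 times siNC without TGF-β (exact binomial interval 0.128 to 0.385, from 23 and 39 reads) and at 0.250 times with TGF-β (0.117 to 0.498, from 12 and 32 reads). Igfbp6 was higher with the pairs in untreated cells, where siNC was at 0.333 times the pairs by reads (exact binomial interval 0.146 to 0.669), while with TGF-β the ratio of siNC to the pairs was 0.902 with an interval of 0.269 to 2.74. These intervals cover counting error and not the spread between transfections. Set beside untransfected and untreated EpRas cells (Igfbp3 at 0.499 and 0.872 FPKM, Igfbp6 at 4.11 and 3.18 FPKM), the pairs without TGF-β were nearer to these separately quantified levels than siNC was for both genes. Igfbp2 and Igfbp5 were listed at 0 in all 6 siRNA libraries. Igf2 was at 0.284 FPKM without and 0.0559 FPKM with TGF-β in the pair 1 libraries and was listed at 0 in the other 4.

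Some markers of other cell types differed between the siRNA conditions as well. Acta2, which encodes smooth muscle actin, was at 23.4 and 202 FPKM with pair 1 without and with TGF-β, at 0.201 and 13.2 FPKM with pair 2 and at 0.512 and 0.490 FPKM with siNC. Of 6 myoepithelial markers it was the 1 that was highest with pair 1 in both conditions, and the sum of the 6 was 260 and 416 FPKM with pair 1, 365 and 258 FPKM with pair 2 and 109 and 141 FPKM with siNC. Of 8 fibroblast markers, 3 (Col1a1, Col1a2 and Col3a1) were highest with pair 1 in both conditions and 1 (Pdgfra) was lowest. Pdgfrb was higher with both pairs than with siNC in both conditions. The sum of the 8 was 25.7 and 43.9 FPKM with pair 1, 16.6 and 22.4 FPKM with pair 2 and 5.50 and 11.7 FPKM with siNC. Of the epithelial, leukocyte and endothelial markers, Krt7, Cd68, Csf1r and Pecam1 were lowest with pair 1 in both conditions and none was highest. The part of these levels in the differences of Igfbp4 and Igfbp7 was not tested.

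**Figure D4:**
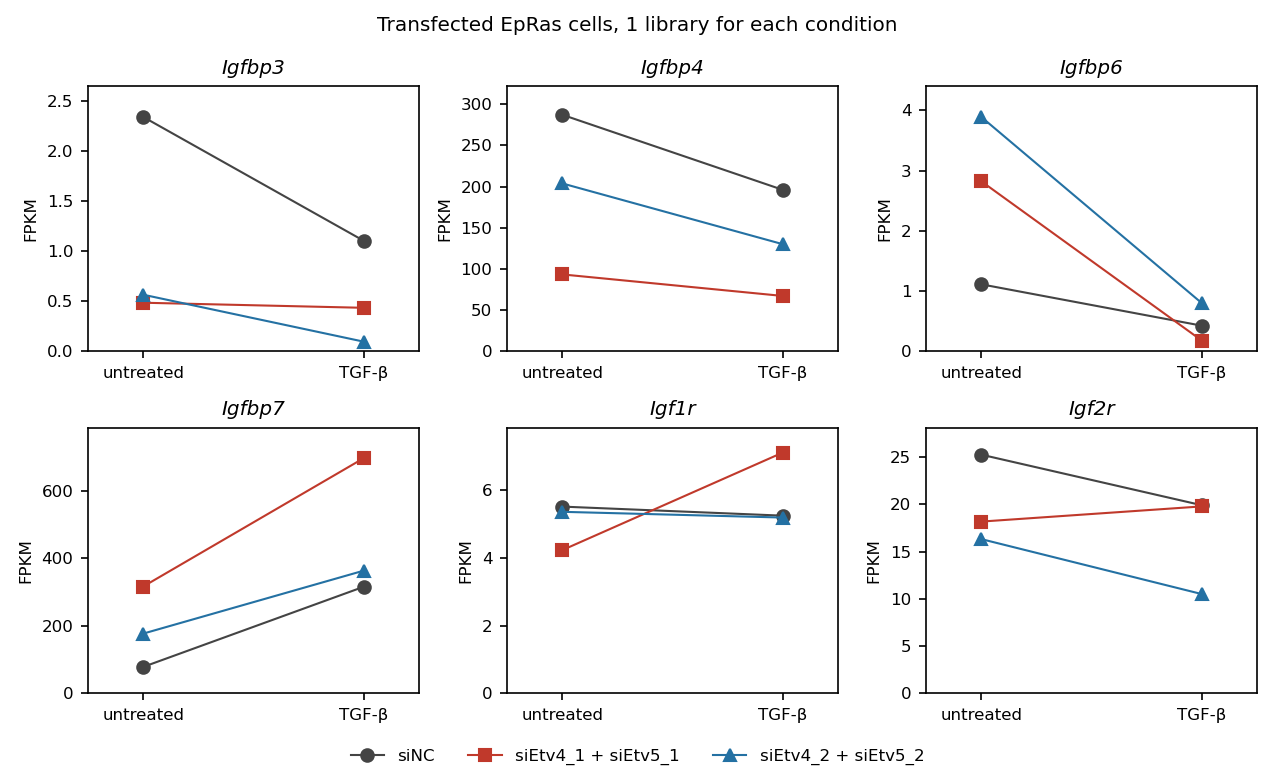
Expression level (FPKM, linear axes from 0) of 6 genes in transfected EpRas cells without and with TGF-β, with 1 point for each library and a line joining the libraries of 1 siRNA condition. Igfbp4 lies highest with siNC and lowest with pair 1, while Igfbp7 lies lowest with siNC (78.5 and 316 FPKM) and highest with pair 1 (317 and 697 FPKM).

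The ligands and receptors around the family were scarce. Igf1, which encodes IGF-I, was at 0.384 and 0 FPKM in untreated EpH4 cells and 3.47 and 4.47 FPKM after TGF-β. In EpRas cells Igf1 was at 0 and 0.0221 FPKM without and 0.0292 and 0.865 FPKM with TGF-β. Among the untransfected libraries, Igf1 reached 1 FPKM in the treated EpH4 ones only. Without a filter its log2 difference of 2.07 with TGF-β in EpH4 cells was not called (limma, adjusted p = 0.0759). In siRNA libraries Igf1 was highest with pair 1 and TGF-β, at 2.09 FPKM, against 0.368 FPKM with pair 2 and 0.0114 FPKM with siNC. Insr, the insulin receptor gene, was at 2.15 to 3.25 FPKM in the untransfected libraries. Ins1, Ins2 and Insrr were listed at 0 in all 8.

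Of 41 other genes of the pathway, 21 were tested in untransfected cells, and in each contrast they are set against the shares of all genes given above (6.48% higher and 2.91% lower in EpH4 cells, 1.90% and 1.92% in EpRas cells). In EpH4 cells 1 was called higher with TGF-β, Foxo1 (log2 fold change 0.90, SE 0.17, limma, adjusted p = 0.0173). Foxo1 encodes a transcription factor held in check by AKT. Among the untransfected libraries it reached 5 FPKM in TGF-β-treated ones only. The filter thus admitted Foxo1 through the group where it is high, and no conclusion is drawn from its call. Called lower was 1, Pik3r1 (-1.08, SE 0.15, limma, adjusted p = 0.00522), which encodes the p85α regulatory subunit of PI3K. Pik3r1 reached 5 FPKM in the untreated EpH4 libraries only, again the group where it is high, so no conclusion is drawn from its call either. Foxo1 went from 4.39 and 3.97 to 9.79 and 7.59 FPKM and Pik3r1 from 6.24 and 6.85 to 2.53 and 2.60 FPKM. Foxo1 was not called without any one of the 4 EpH4 libraries (adjusted p = 0.0544 to 0.161) or with no filter (0.0517), and Pik3r1 not without either TGF-β-treated one (adjusted p = 0.0659 and 0.0584).

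In EpRas cells TGF-β decreased 1 of the 21, Htra1, a secreted protease gene (from 283 and 309 to 141 and 174 FPKM, log2 fold change -0.91, SE 0.17, limma, adjusted p = 0.0286). Over the 15 alternatives it was called in 5, with a limma adjusted p of up to 0.205. Htra1 was called in none of the fits that left out a library except the one without replicate 2 of TGF-β-treated EpRas cells, with adjusted p of 0.0545 to 0.167 in the others. Pik3r1 was also lower in EpRas cells, at 3.58 and 4.22 FPKM without and 2.19 and 1.90 FPKM with TGF-β, without passing the test (-0.69, limma, adjusted p = 0.0563, between 0.0334 and 0.291 over the alternatives). In transfected EpRas cells, where 23 of the 41 were tested, Pik3r1 was the gene called (-0.84, SE 0.13, limma, adjusted p = 0.0357). The call was lost without the libraries of pair 1 (0.238) or pair 2 (0.197). Pik3r1 reached 5 FPKM in untreated libraries only here, so the filter admitted it through the group where it is high and nothing is concluded from the call. For the knockdown, Igf2bp1, which encodes an RNA-binding protein of the Igf2 mRNA, was called higher (1.02, SE 0.16, limma, adjusted p = 0.0399, but 0.0776 with a pseudocount of 5 FPKM). Its level was 2.02 and 1.77 FPKM with siNC, 5.94 and 3.93 FPKM with pair 1 and 4.99 and 4.83 FPKM with pair 2. Igf2bp1 reached 5 FPKM only in the untreated library of pair 1, so the filter admitted it through the group where it is high. The siRNA pairs stand in for replicates of the knockdown in this model, and nothing is concluded from the call. The median log2 change of the tested pathway genes with TGF-β was 0.15 in EpH4 and -0.02 in EpRas cells.

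The genes with the most similar pattern to the other tested members over the 8 libraries were Acsf2, Pml and Plb1 for Igfbp3 (Pearson r = 0.994, 0.994 and 0.993), and Tmem229b, Zfp821 and Chst12 for Igfbp7 (0.997, 0.993 and 0.993). For Igf2r they were Cdcp1, Kirrel and Lgals3bp (0.989, 0.981 and 0.980), and for Igf1r they were Il4ra, Acta2 and Arid1b (0.938, 0.936 and 0.935). All points of 1 group share cells and treatment, so these values describe likeness only.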

How the data were processed

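mRNA of EpH4 and EpRas cells was sequenced directionally on the Ion Proton. The authors aligned the reads to mm10 with TopHat2 (version 2.0.11 in the submitters' processing notes) and quantified genes with Cuffdiff. They deposited 2 tables of FPKM, 1 for the 8 untransfected and 1 for the 6 siRNA libraries, which were processed independently, and each test used the libraries of 1 table. No per-sample column was left unused (0). FPKM are relative to the library total, and whether counting used strand is not given in the sources used here, which bears on Igf2r and its antisense gene.

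The number of reads is not in the tables. Relative depths and the reads behind low FPKM were taken from the steps between values of genes with 1 start site, placed by the annotated transcript length. Intervals of read ratios are exact (Clopper-Pearson, 95%). Genes with OK status and a maximum of at least 5 FPKM (9100 and 9094 genes) were tested with limma 3.58.1 in R 4.3.3 on log2(FPKM + 1), with Benjamini-Hochberg adjustment over all genes tested. This understates changes of low genes. The untransfected fit had 1 mean for each of 4 groups, and the siRNA fits had terms for siRNA or knockdown and for TGF-β. The filter is the one the study states for its gene set analysis. The limma script was tested on simulated data. The rest was computed in Python 3.11.15 (scipy 1.17.1, pandas 2.3.3, numpy 2.4.6). Sequences are from RefSeq and positions from GENCODE M21.

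The members and lists were chosen with earlier results of these data known. Named beside the 9 members were the ligands and receptors, the pathway genes called in a tested contrast, control genes, the 3 most similar genes for each tested member and, for the binding proteins with unequal levels, the nearest genes of at least 5 FPKM. Alternatives were other pseudocounts, filters and scaling, a replicate block, the 2 groups alone, left-out libraries and each siRNA pair alone.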

Additional observations from a re-analysis of the deposited data

Results flagged for a closer look

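Igfbp3 was singled out because its libraries lay on opposite sides with TGF-β in the 2 lines: both treated EpH4 libraries lay above both untreated ones (9.69 and 8.07 against 7.98 and 8.01 FPKM), and both treated EpRas libraries lay below (0 and 0.228 against 0.499 and 0.872 FPKM). The difference between the effects was -0.73 (SE 0.26) on the log2(FPKM + 1) scale and was not called by limma (adjusted p = 0.364, unadjusted p = 0.0268). This test is not independent of the pattern that singled the gene out. Igfbp3 reached 5 FPKM in EpH4 cells only, and the treated EpRas libraries held 2 reads in all. In EpH4 cells 206 reads with and 248 without TGF-β gave a ratio of 1.09 (exact binomial interval 0.902 to 1.32), so counting error alone covers that difference. How many of all genes have such an arrangement of libraries was not computed.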

How the results depend on the processing

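The number of tested members called for TGF-β in EpH4 cells was 1 in all settings except the filter of 1 FPKM, where it was 2 because Igfbp5 was admitted through a treated EpH4 library, the group where it is high, and in EpRas cells it was 0, but 1 with the filter of 1 FPKM. Over the fits that left out 1 library it was 1 in EpH4 cells and 0 to 1 in EpRas cells, the 1 being Igfbp4 without replicate 2 of TGF-β-treated EpRas cells. In transfected EpRas cells the number was 1, but 0 with a pseudocount of 0.1 FPKM and 0 without the libraries of pair 1 or of pair 2, left out as an alternative chosen after seeing the data. For the knockdown without TGF-β, 1 member was past 2-fold, 3 with the filter of 1 FPKM and 2 with pair 1 alone. The filter of 1 FPKM admitted Igfbp3 through the siNC libraries only, the group where it is high, so nothing is read from the count with that filter. With TGF-β the number past 2-fold was 0, but 1 with median scaling and 2 with pair 1 alone. No member was called for the interaction under any setting (0). Directions also turned for values that were not called. For Igf1r these included the line difference without TGF-β, between -0.055 and 0.24 over the fits that left out 1 library, the knockdown with TGF-β with pair 2 alone, -0.013, TGF-β in EpRas cells, which lay between -0.019 and 0.031 over the fits that left out 1 library, TGF-β in transfected cells without pair 1, -0.050, and the knockdown with median scaling, -0.018. The Igfbp4 interaction, -0.50 with a pseudocount of 1 FPKM, was 0.22 with 0.1 FPKM, and Htra1 in EpH4 cells lay between -0.12 and 0.056 with 1 library left out. The causes were not tested.

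Samples with the same replicate number did not deviate in the same direction (correlations -0.35 to 0.08 between groups), so the main fits did not pair the libraries by number. The correlation was -0.35 between untreated and TGF-β-treated EpRas cells and -0.26 between untreated EpH4 and untreated EpRas cells. Deviations were thus partly opposite there, and whether libraries of unlike number share a batch was not tested. With a replicate block, 1 member was called in EpH4 cells and 0 in EpRas cells, as without it, Htra1 was no longer called in EpRas cells (adjusted p = 0.0721), and the genes called in all went from 855 to 547 and from 348 to 222, and for the interaction from 73 to 31. Fitting only the 2 groups compared left 45 genes called in EpRas cells, and no filter left 173. Leaving out 1 library gave 239 to 1085 genes in EpH4 cells, 127 to 413 in EpRas cells and 10 to 127 for the interaction. Without pair 1 or pair 2, 6 or 24 genes were called for TGF-β in transfected cells, and 526 without siNC, where all libraries gave 379. Igfbp2, Igfbp5 and Igfbp6 stood for at most 41 reads in an untransfected library, which limits their ratios.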
